A study of Mus musculus with 6 samples.

Results

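The enzymes of glycolysis and the pentose phosphate pathway, with the carriers and regulators at their entry and exit, were followed at the transcript level in activated B cells lacking the RNA-binding protein hnRNPL. The set holds 42 genes, chosen by name among the 55421 genes of the table: glucose and lactate transporters, every step from hexokinase to lactate dehydrogenase, the pyruvate dehydrogenase branch, and both arms of the pentose phosphate pathway. The name *Aldoa* stands on a pair of rows, of which the abundant one was used. Poly(A) RNA-seq was performed on splenic B cells of 3 hnRNPL-deficient mice (*CD21-cre* with *Hnrnpl* F/F) and 3 WT mice (*CD21-cre* alone). Both groups also carried the *Rosa* mT/mG Cre reporter, on a C57BL6/J background, and animals of either sex, aged over 6 weeks, were used. All cultures were stimulated for 24 h with 5 μg/ml LPS and 5 ng/ml IL-4, and cells carrying GFP, the mark of past Cre activity, were sorted. Cre under *CD21* control acts mostly in peripheral B cells, although other tissues can be affected during development. *Hnrnpl* itself averaged 24708 ± 761 normalized counts in WT cells and 1664 ± 459 in deficient cells (SD, n = 3 each).

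Glycolysis splits glucose into pyruvate, with hexokinase, phosphofructokinase and pyruvate kinase catalysing its irreversible steps, and phosphofructokinase as the main point of control. The pentose phosphate pathway leaves it after the first step and yields NADPH and ribose for biosynthesis. Resting B cells are metabolically quiet, and stimulation with LPS or IL-4 makes them take up more glucose and express more of these enzymes, partly through MYC and HIF-1α, transcription factors that bind E-box and hypoxia-response sequences in the promoters of many glycolytic genes.

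Libraries held between 40395186 and 75180749 reads on genes, with deficient library 3 the shallowest. That library also had the largest share of mitochondrial transcripts, 8.92% against 5.57% to 7.06% in the other 5. *Xist* reached 98510 normalized counts in WT library 3 and 98220 in deficient library 2 and at most 7.21 in the others, so each group had 1 *Xist*-positive library. The 6 B cell markers summed to between 468650 and 585790 normalized counts in every library. The 8 myeloid markers summed to 259.95 to 331.13 in WT and 1239 to 1382 in deficient libraries, almost all of it *Adgre1*, while *S100a8* and *S100a9* were at 0 throughout and *Lyz2* and *Cd14* reached at most 2.02. *Adgre1* was called higher (log2 fold change 2.24 ± 0.15, limma adjusted p = 0.00014, at most 0.0014 with any 1 library left out). The 7 T cell markers summed to 20.9 to 32.1 and 45.1 to 50.5, and the 7 erythroid markers to 17.6 to 38.3 and 55.0 to 84.8. Of the erythroid markers, *Hbb-bt* was called higher, from 12.2 ± 4.63 to 44.1 ± 10.9 (log2 fold change 1.82 ± 0.40, limma adjusted p = 0.0235). The 5 plasma cell markers summed to 33957 to 39571 and 33295 to 36361, and 1 of them, *Jchain*, was called lower, from 84.1 ± 50.4 to 14.7 ± 8.23 (log2 fold change -2.31 ± 0.63, limma adjusted p = 0.0509), a call lost without WT library 1 (0.131), WT library 2 (0.148), deficient library 2 (0.126) or deficient library 3 (0.111). The part of such cells in the results was not tested. In bulk RNA, fewer cells of a type and less RNA per cell cannot be told apart.

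The pathway genes were mostly a little lower in hnRNPL-deficient cells, and *Pfkl* was far lower. Of the 42, 39 reached a mean of 10 normalized counts and were tested, and *Hk3*, *Ldhb* and *Pdk4* did not. A gene was called when limma gave a Benjamini-Hochberg adjusted p under 0.1, over all 17640 genes tested, and a fold of at least 1.5. Only *Pdk2* was called higher, beside 7.28% of all genes tested, and 5 genes were called lower, namely *Hk2*, *Pfkl*, *Eno3*, *Pdk1* and *Slc16a1*, beside 4.08%. Without the minimum fold, 11 members fell and 1 rose, against backgrounds of 7.97% and 10.0%. The groups did not overlap for 20 members that were lower in every deficient library (16.3% of all genes tested) and 5 that were higher (17.7%). The median log2 fold change was -0.20 over the 39 tested members and -0.03 over all genes. The members are abundant, and 28 of them averaged at least 1000 normalized counts. These 28 had a median of -0.24, with 10 of them past the adjusted p as lower, whereas the 7102 genes of that abundance had a median of -0.08, with 880 lower.

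**Figure D1:**
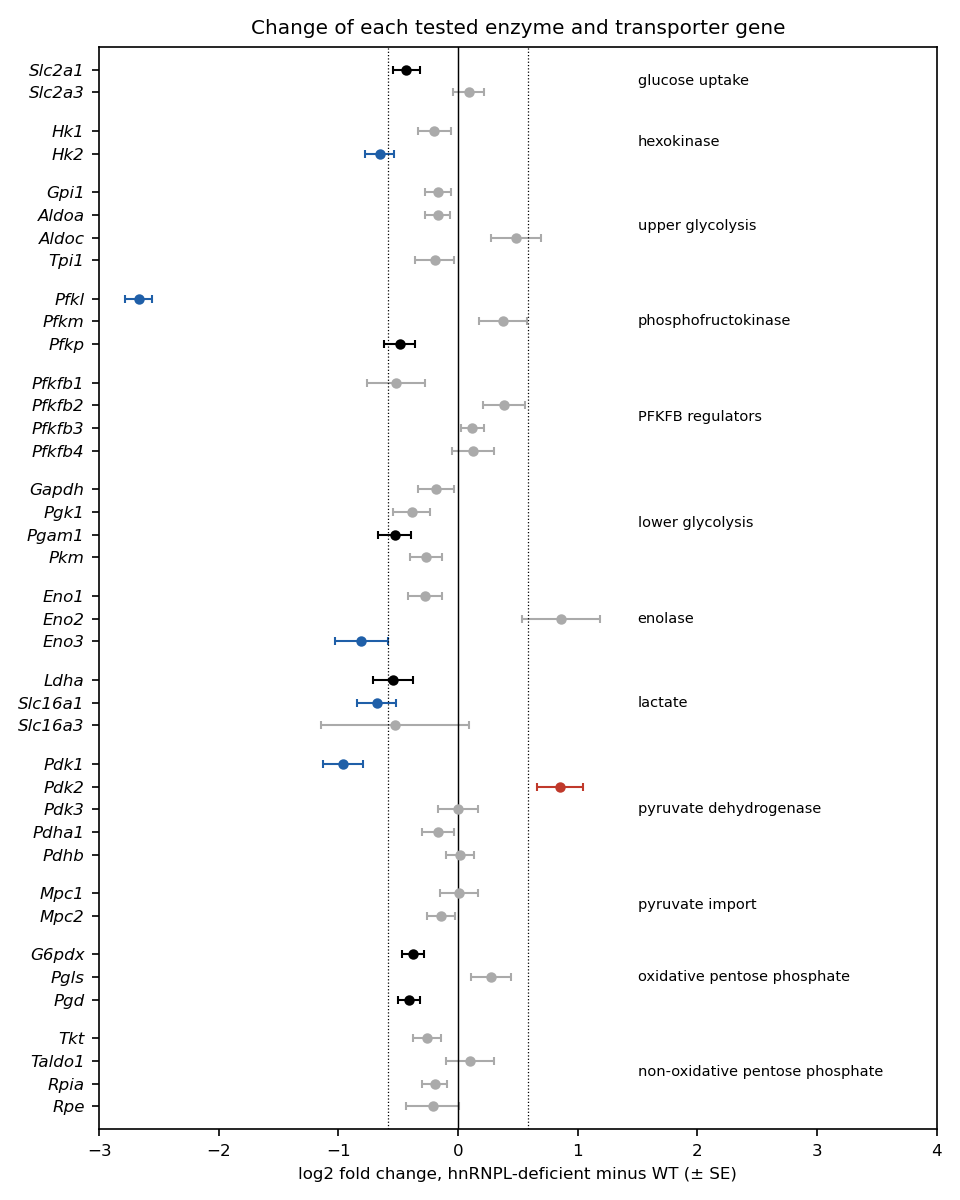
Log2 fold change (hnRNPL-deficient minus WT, limma, on log2(normalized count + 1)) of the 39 tested genes, grouped by role, with bars for the standard error and dotted lines at a fold of 1.5. Blue marks the 5 genes called lower, red the 1 called higher, black the other genes with an adjusted p under 0.1 and grey the rest; *Pfkl* stands alone at -2.67.

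The spread of the members by library showed how much of this small shift lay in 1 library. Relative to the WT mean, the median of the 39 genes was 0.06, 0.00 and -0.05 on the log2 scale in WT libraries 1 to 3, and -0.11, -0.13 and -0.40 in deficient libraries 1 to 3. Deficient library 3, the shallowest, was thus the lowest, and it gave the lowest of the 6 values for 22 of the 39 genes. Without it the median log2 fold change was -0.12. The part of depth or RNA quality in this was not tested.

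**Figure D2:**
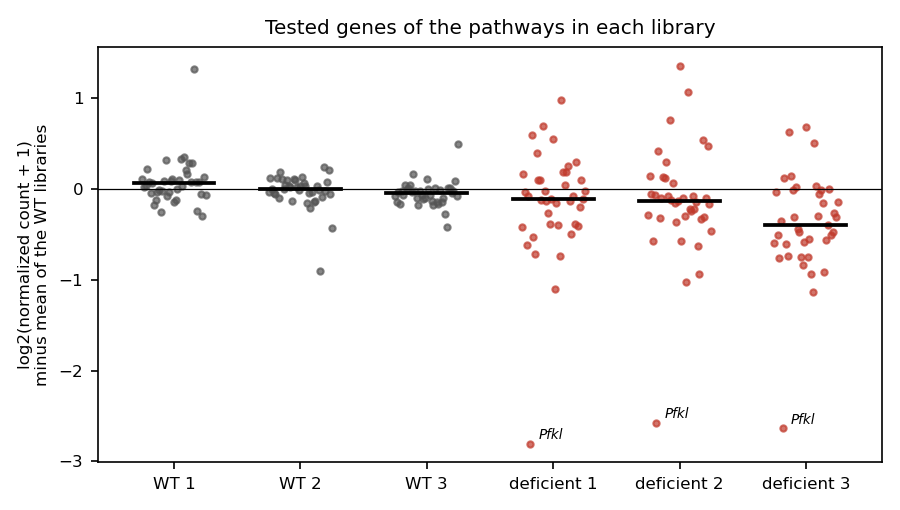
Each point is 1 of the 39 tested genes, as log2(normalized count + 1) minus its mean in the WT libraries, in the 3 WT (grey) and 3 hnRNPL-deficient (red) libraries, with black bars for the medians. The medians of the deficient libraries lie below 0, lowest in library 3, and *Pfkl* lies far below all other genes in each of the 3.

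Promoters of 5 of the 6 called genes, all but *Eno3*, and of *Ldha*, a classical MYC and HIF target, are shown to compare their upstream sequence. The 250 bases before the RefSeq transcription start (GRCm38.p6) are printed on the strand of the gene. Each ACGTG, a form of the core of hypoxia-response elements, is in capitals on either strand. ACGTG is also contained in the E-box CACGTG.
*Pfkl*, chr10:78009808-78010057, minus strand: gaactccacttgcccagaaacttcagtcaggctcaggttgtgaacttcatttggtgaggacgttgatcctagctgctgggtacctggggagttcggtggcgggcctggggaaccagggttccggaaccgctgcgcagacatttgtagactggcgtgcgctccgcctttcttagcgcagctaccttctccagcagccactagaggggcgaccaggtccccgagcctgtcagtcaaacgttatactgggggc
*Hk2*, chr6:82774455-82774704, minus strand: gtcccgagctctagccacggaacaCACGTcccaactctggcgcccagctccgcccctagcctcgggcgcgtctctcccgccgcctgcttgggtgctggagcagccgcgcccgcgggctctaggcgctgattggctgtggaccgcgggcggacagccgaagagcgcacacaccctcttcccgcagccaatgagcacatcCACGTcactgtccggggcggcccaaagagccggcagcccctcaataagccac
*Pdk1*, chr2:71872974-71873223, plus strand: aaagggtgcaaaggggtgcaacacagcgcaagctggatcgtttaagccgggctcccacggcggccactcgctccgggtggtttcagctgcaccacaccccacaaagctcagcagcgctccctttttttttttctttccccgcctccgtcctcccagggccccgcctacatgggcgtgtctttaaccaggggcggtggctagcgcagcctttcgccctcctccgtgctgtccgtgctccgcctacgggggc
*Pdk2*, chr11:95041372-95041621, minus strand: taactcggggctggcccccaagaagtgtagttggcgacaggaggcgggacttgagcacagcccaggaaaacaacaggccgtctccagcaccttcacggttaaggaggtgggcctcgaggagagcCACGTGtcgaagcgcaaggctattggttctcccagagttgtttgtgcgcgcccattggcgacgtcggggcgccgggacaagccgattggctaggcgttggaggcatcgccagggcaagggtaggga
*Slc16a1*, chr3:104638414-104638663, plus strand: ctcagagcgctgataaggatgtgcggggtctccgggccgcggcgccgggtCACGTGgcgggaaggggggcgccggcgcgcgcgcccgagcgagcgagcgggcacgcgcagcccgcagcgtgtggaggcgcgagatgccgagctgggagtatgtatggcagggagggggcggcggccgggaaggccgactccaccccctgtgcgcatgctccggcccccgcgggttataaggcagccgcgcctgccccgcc
*Ldha*, chr7:46845554-46845803, plus strand: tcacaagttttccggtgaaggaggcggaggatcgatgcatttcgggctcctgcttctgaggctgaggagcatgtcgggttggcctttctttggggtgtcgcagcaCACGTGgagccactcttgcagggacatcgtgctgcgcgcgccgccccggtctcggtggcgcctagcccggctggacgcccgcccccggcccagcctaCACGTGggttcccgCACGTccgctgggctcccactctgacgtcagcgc
The *Pfkl* and *Pdk1* windows held neither ACGTG nor CACGTG, and nor did the *Eno3* window, which is not printed. The other form of the core, GCGTG, was not counted or marked, and it occurs in the *Pfkl* and *Pdk1* windows, among others. *Hk2* had cores starting 226 and 52 bases before the start, *Slc16a1* an E-box at 200, *Pdk2* an E-box at 126, and *Ldha* E-boxes at 145 and 48 and a further core at 34. *Pdk1*, *Pdk2* and *Ldha* each have a further listed start, whose window held no match. Over the 41 members with a promoter in the table, which exclude *Slc2a3*, 16 (39.0%) held ACGTG and 6 (14.6%) CACGTG in the 250 bases before at least 1 start. Among the 9785 tested genes matched to the table the shares were 25.4% and 10.0%, and among all 32851 promoters 16.6% and 6.02%. Of the 11 members that fell, 5 held ACGTG. A match of letters does not show binding, and these shares were not tested.

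The main glucose transporter gene fell by a modest amount. *Slc2a1*, encoding the widely expressed glucose transporter GLUT1, had 3964, 3607 and 3497 normalized counts in WT libraries 1 to 3 and 2754, 3027 and 2436 in deficient libraries 1 to 3. The groups did not overlap, and *Slc2a1* fell by 0.43 ± 0.11 on the log2 scale (SE, limma adjusted p = 0.0419), less than the minimum fold. It missed the adjusted p without WT library 2 (0.112), WT library 3 (0.102) or deficient library 1 (0.102). *Slc2a3*, encoding the high-affinity transporter GLUT3, was at 778.5 to 935 and 837 to 962, a log2 fold change of 0.09 with overlapping groups. Per kb of exon, *Slc2a1* made up 89.8% ± 0.84 of both transporters in WT and 86.0% ± 0.68 in deficient cells. *Slc2a6*, a glucose transporter gene outside the set and not counted in these shares, had 2279 ± 646 normalized counts in WT and 3174 ± 566 in deficient cells, with overlapping groups (log2 fold change 0.50 ± 0.22, limma adjusted p = 0.174).

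Hexokinase traps glucose in the cell as glucose-6-phosphate. *Hk2*, the isoenzyme induced in dividing cells, had 7070, 5875 and 5398 normalized counts in WT and 3947, 4086 and 3573 in deficient libraries. Every deficient library was below every WT library, and *Hk2* fell by 0.65 ± 0.12 on the log2 scale (limma adjusted p = 0.0125). *Hk1*, the constitutive isoenzyme, had 2737, 2679 and 2619 normalized counts in WT and 2616, 2579 and 1882 in deficient libraries, and its log2 fold change of -0.20 did not pass the test (limma adjusted p = 0.394). *Hk3* was at 2.32, 6.05 and 6.88 in WT and 0.90, 6.06 and 1.37 in deficient libraries, too low to be tested. Summed per kb, the hexokinases stood at 1340 ± 150.3 in WT and 925 ± 92.2 in deficient cells, 69.1% of the WT level, and the share of *Hk2* was 76.3% ± 2.1 and 70.2% ± 2.5. Without WT library 1, in which *Hk2* was highest, its log2 fold change was -0.54 (limma adjusted p = 0.0223) and missed the minimum fold.

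The largest difference lay at phosphofructokinase, the step that commits fructose-6-phosphate to glycolysis. *Pfkl*, the liver-type subunit (chr10:77986947-78010083 on the minus strand, GRCm38), had 3867, 4321 and 3794 normalized counts in WT libraries 1 to 3. The deficient libraries held 571, 669 and 644. Both groups were tight and far apart: the deficient mean was 15.7% of the WT mean, and *Pfkl* fell by 2.67 ± 0.11 on the log2 scale (limma adjusted p = 2.11e-05). The fold change was between -2.72 and -2.60 with any 1 library left out. Among the 7063 genes with a WT mean of at least 1000 normalized counts, only *Hnrnpl* (-3.93) and *Shank1* (-3.08) fell further. At most 1 of these genes had a smaller limma p than *Pfkl* (unadjusted p = 4.54e-09), and it was not *Hnrnpl* (6.32e-09).

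No other subunit gene rose past the test. *Pfkp*, the platelet-type subunit, had 3295, 4241 and 3710 normalized counts in WT and 2576, 2983 and 2440 in deficient libraries, without overlap, and fell by 0.49 ± 0.13 on the log2 scale (limma adjusted p = 0.0419). It missed the adjusted p without WT library 2 (0.146), WT library 3 (0.125), deficient library 1 (0.113) or deficient library 3 (0.107). *Pfkm*, the muscle-type subunit, was low, at 144, 128 and 141 in WT and 208, 184 and 149 in deficient libraries, and its log2 fold change of 0.38 ± 0.20 did not pass (limma adjusted p = 0.269), although the groups did not overlap. Summed per kb of exon, phosphofructokinase transcripts reached 868, 1002 and 888 in WT and 340, 378 and 323 in deficient libraries, which was 37.8% of the WT level. The makeup of the family was different as well. *Pfkl* supplied 65.1% ± 1.42 of the sum in WT cells and 27.2% ± 2.42 in deficient cells, *Pfkp* 30.4% ± 1.78 and 57.2% ± 1.44, and *Pfkm* 4.52% ± 0.61 and 15.6% ± 2.42 (SD, n = 3 each). Thus the leading subunit transcript per kb was *Pfkl* in each WT library and *Pfkp* in each deficient library. A two-sided exact permutation test of each of these shares gave p = 0.1, the smallest that 3 against 3 libraries allow. Adjusted over the 25 shares compared in all families it was 0.156, and 16 of the 25 had no overlap. Without division by length, *Pfkl* and *Pfkp* were close in WT cells, at 50.8% and 47.5% of the sum. In deficient cells they made up 18.1% and 76.7%.

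**Figure D3:**
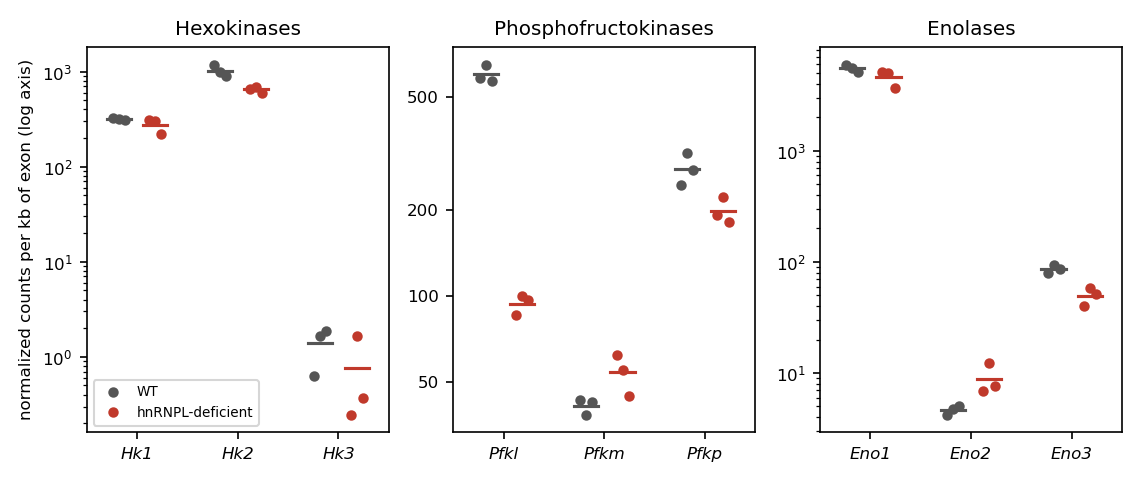
Normalized counts per kb of exon (log axis) of hexokinase, phosphofructokinase and enolase genes in each WT (grey) and hnRNPL-deficient (red) library, with lines for the group means (n = 3). *Pfkl* averaged 598 in WT and 94.1 in deficient cells, below *Pfkp* at 199, while *Eno1* remained far above the other enolases.

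The PFKFB enzymes make and remove fructose-2,6-bisphosphate, the activator of phosphofructokinase. None of the 4 passed the adjusted p by limma, edgeR or DESeq2, and 0 had an unadjusted p under 0.05 by limma, against 1, *Pfkfb2*, by edgeR and by DESeq2. *Pfkfb3*, the isoenzyme that most favours making it, led the family per kb with 64.6% of the sum in WT and 65.3% in deficient cells, and its log2 fold change was 0.12. *Pfkfb2* and *Pfkfb4* had values of 0.38 and 0.13, and *Pfkfb1* of -0.52, with overlapping groups for *Pfkfb4* and *Pfkfb1*.

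The remaining upper steps had no gene past the adjusted p by limma or edgeR, and 1, *Aldoc*, by DESeq2. *Gpi1*, encoding the isomerase of glucose-6-phosphate, *Aldoa*, encoding the main aldolase, and *Tpi1*, encoding triosephosphate isomerase, had log2 fold changes of -0.16, -0.17 and -0.20, none past the test (limma adjusted p from 0.336 to 0.467). *Aldoc*, the minor aldolase gene, had 386, 369 and 339 normalized counts in WT and 587, 615 and 370.1 in deficient libraries. Its log2 fold change of 0.49 did not pass either (limma adjusted p = 0.173), and the groups overlapped through deficient library 3; without that library it was 0.72 and passed (limma adjusted p = 0.0291). Processed pseudogenes of *Aldoa*, *Gapdh*, *Tpi1*, *Pgk1*, *Pgam1*, *Eno1*, *Pkm* and *Ldha* can share reads with them, so the absolute levels of these genes are uncertain.

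In lower glycolysis, 1 of 4 genes outside the enolases fell. *Pgam1*, encoding phosphoglycerate mutase, had 17801, 16936 and 15542 normalized counts in WT and 12767, 13040 and 9374 in deficient libraries. The groups were apart, with deficient library 3 lowest, and *Pgam1* fell by 0.53 ± 0.14 on the log2 scale (limma adjusted p = 0.0444). It missed the adjusted p without WT library 1 (0.101) or WT library 2 (0.12). *Pgk1*, encoding phosphoglycerate kinase, was lower in every deficient library at a log2 fold change of -0.39 (limma adjusted p = 0.141). *Gapdh* and *Pkm*, encoding glyceraldehyde-3-phosphate dehydrogenase and pyruvate kinase, were among the most abundant members and had log2 fold changes of -0.18 and -0.27, neither past the test.

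Enolase converts 2-phosphoglycerate into phosphoenolpyruvate, and nearly all of its transcripts came from *Eno1*. *Eno1* had 32126, 29595 and 27794 normalized counts in WT and 27658, 27195 and 19854 in deficient libraries, narrowly apart, with a log2 fold change of -0.27 that did not pass (limma adjusted p = 0.255). *Eno3*, the muscle isoenzyme gene, had 138, 164 and 150 normalized counts in WT and 69.4, 101 and 89.1 in deficient libraries and fell by 0.81 ± 0.22 on the log2 scale (limma adjusted p = 0.0531). *Eno2*, the neuronal isoenzyme gene, was at 19.7, 22.5 and 23.7 in WT and 32.5, 57.5 and 35.6 in deficient libraries, a log2 fold change of 0.86 ± 0.33 (limma adjusted p = 0.133). The *Eno3* and *Eno2* groups did not overlap, but both genes are minor: per kb *Eno1* made up 98.4% ± 0.22 of the family in WT and 98.7% ± 0.34 in deficient cells, *Eno3* 1.55% and 1.09%, and *Eno2* 0.083% and 0.19%. *Eno3* lost its adjusted p without WT library 2 (0.170), WT library 3 (0.160) or deficient library 1 (0.136).

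The main transcripts for making and exporting lactate both fell. *Ldha*, encoding the muscle-type subunit of lactate dehydrogenase, had 17651, 16962 and 15107 normalized counts in WT and 12538, 13464 and 8647 in deficient libraries. *Slc16a1*, encoding the lactate carrier MCT1, had 10635, 8670 and 7212 normalized counts in WT and 6191, 5654 and 4616 in deficient libraries. In neither gene did the groups overlap, and deficient library 3 was the lowest in both. *Ldha* fell by 0.54 ± 0.16 (limma adjusted p = 0.0696) and *Slc16a1* by 0.68 ± 0.16 on the log2 scale (limma adjusted p = 0.0321). *Slc16a1* missed the minimum fold without WT library 1 (-0.54) or deficient library 3 (-0.56), and *Ldha* missed the adjusted p without any 1 WT library (0.124 to 0.166). *Ldhb* was at 0 in all WT libraries and at 0.90 to 2.74 in deficient ones, and *Slc16a3*, encoding MCT4, was under 30 in every library, with overlapping groups.

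At the entry of pyruvate into mitochondrial oxidation, members of the kinase family that switches off pyruvate dehydrogenase differed in direction. *Pdk1*, the isoenzyme known as a HIF-1 target, had 3259, 2342 and 2308 normalized counts in WT and 1564, 1280 and 1183 in deficient libraries. *Pdk2* had 194, 183 and 190 in WT and 374, 397 and 269 in deficient libraries. The groups stood apart in both genes, in opposite directions: *Pdk1* fell by 0.96 ± 0.17 on the log2 scale (limma adjusted p = 0.00914) and *Pdk2* rose by 0.85 ± 0.19 (limma adjusted p = 0.0266), and both were called with any 1 library left out. *Pdk3* was the most abundant kinase per kb and had a log2 fold change of -0.0033 ± 0.17 with overlapping groups. *Pdk1* made up 22.0% ± 0.54 of the kinase transcripts per kb in WT and 12.2% ± 1.13 in deficient cells, *Pdk2* 3.96% ± 0.66 and 7.82% ± 1.97, and *Pdk3* 74.1% ± 0.90 and 80.0% ± 3.0, none overlapping. Their sum was 1545 ± 322 in WT and 1416 ± 172 per kb in deficient cells, with overlap. *Pdha1* and *Pdhb*, encoding the subunits of the enzyme that these kinases act on, and *Mpc1* and *Mpc2*, encoding the mitochondrial pyruvate carrier, had log2 fold changes between -0.17 and 0.02, none past the adjusted p by limma, edgeR or DESeq2.

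**Figure D4:**
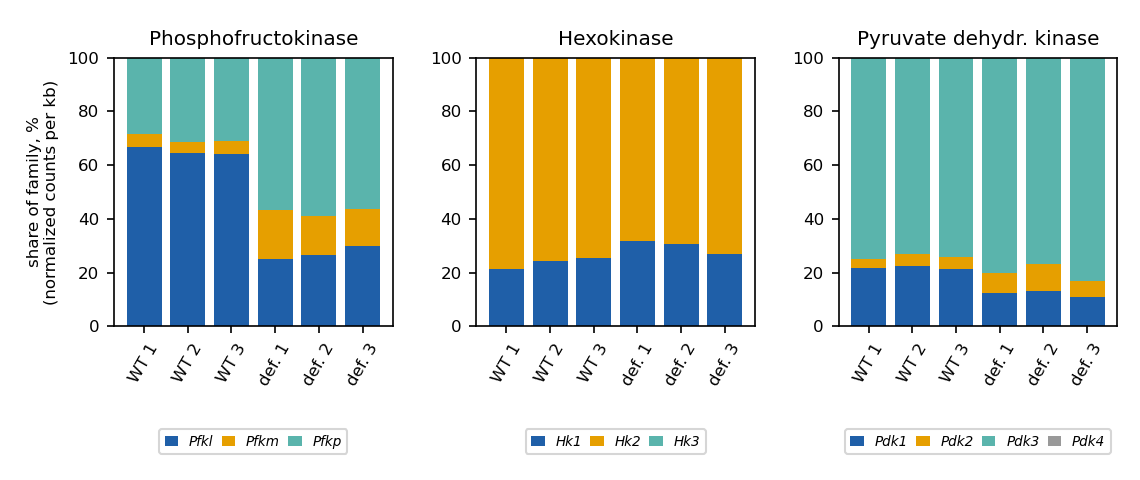
Share of each isoenzyme gene in the phosphofructokinase, hexokinase and pyruvate dehydrogenase kinase families (% of normalized counts per kb of exon), 1 bar per WT and hnRNPL-deficient (def.) library. The *Pfkl* share is 64.0% to 66.7% in WT and 25.1% to 29.9% in deficient libraries, the *Hk2* share 74.5% to 78.7% and 68.3% to 73.0%, and the *Pdk1* share 21.5% to 22.5% and 10.9% to 13.1%.

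The oxidative arm of the pentose phosphate pathway was lower at both of its NADPH-producing steps. *G6pdx*, encoding glucose-6-phosphate dehydrogenase, had 5276, 4694 and 5041 normalized counts in WT and 3810, 3961 and 3799 in deficient libraries. *Pgd*, encoding 6-phosphogluconate dehydrogenase, had 10211, 9583 and 9399 in WT and 7309, 7854 and 6853 in deficient libraries. Both pairs of groups were apart, and *G6pdx* fell by 0.37 ± 0.09 (limma adjusted p = 0.0340) and *Pgd* by 0.41 ± 0.09 on the log2 scale (limma adjusted p = 0.0277), each less than the minimum fold. *Pgd* kept its adjusted p with any 1 library left out, whereas *G6pdx* missed it without WT library 3 (0.122) or deficient library 1 (0.105). *G6pdx* is on chromosome X, as are *Pgk1*, *Pdk3*, *Pdha1* and *Pfkfb1*, and with a covariate for the *Xist* status of the library the same 12 members passed. *Pgls*, encoding the lactonase between those steps, had a log2 fold change of 0.28 with overlapping groups.

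The non-oxidative arm exchanges sugars between ribose and glycolysis. Among its 4 genes, 0 passed the adjusted p and 0 had an unadjusted p under 0.05, by limma, edgeR or DESeq2. *Tkt*, encoding transketolase and the most abundant of them per kb of exon, had a log2 fold change of -0.26 and was lower in every deficient library (limma adjusted p = 0.189). *Rpia*, encoding ribose-5-phosphate isomerase, had -0.19, *Rpe*, encoding the epimerase of ribulose-5-phosphate, -0.21, and *Taldo1*, encoding transaldolase, 0.10.

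The same fit also covered 6 neighbouring lists, of 83 genes in all. Of the 58 tested, 5 were called higher and 1 lower, beside 7.28% and 4.08% of all genes tested, with a median log2 fold change of 0.08. Among 6 further isoenzyme and transporter genes tested, limma called 0, with 2 at an unadjusted p under 0.05, and edgeR and DESeq2 each called 1, *Slc2a8*, as higher. Among 7 partners of pyruvate dehydrogenase and of the lactate carriers, *Emb*, encoding embigin, a companion of monocarboxylate carriers, fell from 395 ± 122 to 185 ± 41.2 normalized counts (log2 fold change -1.07 ± 0.26, limma adjusted p = 0.0326), while *Bsg*, encoding the usual MCT1 companion basigin, was not called. Of 9 further pentose and NADPH genes, *Rbks*, encoding ribokinase, rose from 408 ± 24.1 to 1101 ± 77.3 (log2 fold change 1.43 ± 0.13, limma adjusted p = 0.000528). *Shpk*, encoding the sedoheptulose kinase, rose from 92.3 ± 13.6 to 169 ± 24.4 (0.87 ± 0.22, limma adjusted p = 0.0387). With 1 library left out, the limma adjusted p reached at most 0.00538 for *Rbks* but 0.140 for *Shpk*, which then lost its call. *Me1*, encoding the cytosolic malic enzyme, had 22.1, 19.0 and 13.0 in WT and 198, 453 and 6.85 in deficient libraries, overlapping through deficient library 3; it did not pass by limma (2.26 ± 1.26, adjusted p = 0.287) and was called higher by edgeR (adjusted p = 0.0573) and DESeq2 (0.0317), and by limma without deficient library 3 (0.00410) or with the replicate number as a block (0.0865), but not by edgeR without deficient library 2 (0.150). Of 9 tested genes of glycogen metabolism and gluconeogenesis, limma called 0, with 2 at an unadjusted p under 0.05. *Gbe1*, encoding the glycogen branching enzyme, rose from 871 ± 70.7 to 1314 ± 195 (0.58 ± 0.14, limma adjusted p = 0.0339), just under the minimum fold. It was called by edgeR and DESeq2, and its limma adjusted p reached 0.127 with 1 library left out. The other gene, *Gpd2*, fell from 4910 ± 577 to 3830 ± 289 without overlap, under the minimum fold (-0.35 ± 0.11, limma adjusted p = 0.0832, up to 0.211 with 1 library left out).

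Among 16 regulators of the pathway tested, limma, edgeR and DESeq2 called 0, with 4 at an unadjusted p under 0.05 by each. Past the limma adjusted p alone, 1 rose and 1 fell. *Arnt* rose by 0.28 on the log2 scale without overlap (limma adjusted p = 0.0903, up to 0.225 with 1 library left out). *Myc* had 12339, 15369 and 14595 normalized counts in WT and 9698, 12773 and 8956 in deficient libraries, with overlapping groups. It fell by 0.44 ± 0.15 on the log2 scale (limma adjusted p = 0.0976), and missed the adjusted p in fits with 1 library left out (up to 0.240). *Hif1a* had a log2 fold change of 0.05. Of the other HIF targets, with 11 tested, 3 were called higher and none lower, by limma, edgeR and DESeq2 alike. Of all genes tested, limma called 7.28% higher and 4.08% lower. Past the limma adjusted p alone, 4 of these targets rose and 1 fell. *Kdm3a* rose by 0.46 on the log2 scale, under the minimum fold (limma adjusted p = 0.0376, up to 0.137 with 1 library left out). *Ddit4*, encoding an inhibitor of mTORC1, rose from 523 ± 89.4 to 1528 ± 182 normalized counts (log2 fold change 1.55 ± 0.16, limma adjusted p = 0.00105). *Ndrg1*, a stress-responsive gene, rose from 31.0 ± 4.55 to 91.4 ± 17.4 (1.53 ± 0.27, limma adjusted p = 0.0107), and *Mxi1*, encoding a partner of MAX that opposes MYC, from 183 ± 14.5 to 391 ± 82.9 (1.07 ± 0.20, limma adjusted p = 0.0129). *Adm*, encoding adrenomedullin, fell by 0.48 on the log2 scale (limma adjusted p = 0.0510), under the minimum fold, and its adjusted p reached 0.183 with 1 library left out.

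**Figure D5:**
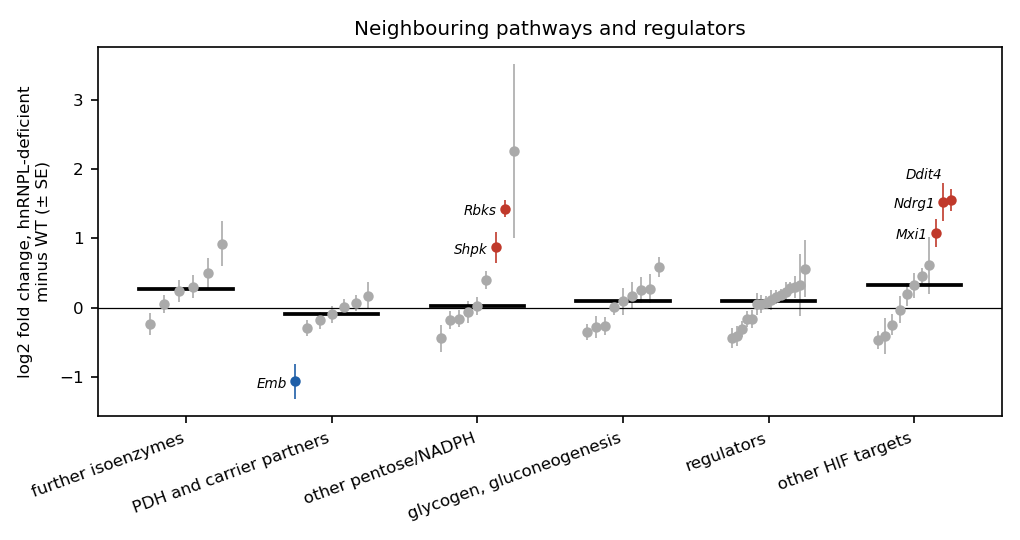
Log2 fold change (hnRNPL-deficient minus WT, limma) with standard error of the 58 tested genes in the neighbouring lists, with black bars for the list medians. Genes called higher are red and named, the 1 called lower, *Emb*, is blue, and grey genes were not called; the other HIF targets have the highest median, 0.32.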

How the data were processed

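Sorted GFP+ B cells from the spleens of 3 mice per genotype were sequenced after activation, and libraries were grouped by the submitters' labels. The authors trimmed reads with fastp 0.23.1, aligned them to mm10 with STAR 2.7.9a and counted them with featureCounts. The deposited values are counts per gene divided by DESeq2 1.38.2 size factors, a normalized signal. In the same deposited table stand the authors' own log2 fold changes, their errors and Wald statistics (a score each) and p-values, raw and adjusted; these were not used. The 42 genes and all gene lists were chosen with earlier results of these data known, and support no independent test.

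The study ran DESeq2 on counts. Since the deposited values are not counts, limma 3.58.1 (R 4.3.3) was fitted here on the scale log2(normalized count + 1), allowing a mean-variance trend. It covered the 17640 genes whose mean reached 10, with Benjamini-Hochberg adjustment and the study's thresholds. Fold changes on this scale understate the change of low genes. The libraries held 40395186 to 75180749 reads on genes. In each column 100% of values were whole multiples, within 0.001 reads, of its smallest value, so reads were recovered and also tested with edgeR 4.0.16 (quasi-likelihood, TMM) and DESeq2 1.42.0. For deficient library 2, whose step is close to 1, whole reads rest on this check alone, and edgeR was repeated on 5 libraries as a choice made once the values were known. The limma, edgeR and DESeq2 fits were tested on simulated counts.

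Isoenzyme shares used merged exon lengths from GENCODE vM21 (GRCm38), an earlier release than the authors' vM23, and two-sided exact permutation tests. Coordinates are from the same annotation, promoters from RefSeq (GRCm38.p6). Genes with values in every library are those with an adjusted p under 0.1 and the hexokinase, phosphofructokinase and enolase families. List genes are named when called. The values of *Pfkfb*, *Aldoc*, *Slc2a6*, *Slc2a8*, *Me1*, *Jchain*, *Adgre1*, *Hbb-bt*, *Gbe1*, *Gpd2*, *Adm*, *Bsg*, *Myc*, *Hif1a*, *Arnt*, *Kdm3a* and *Shank1* were picked after they were seen. The other alternatives were pseudocounts, filters, equal totals, quantile normalization, no trend, stricter and looser thresholds, a replicate block, each library left out and, chosen after seeing the data, an *Xist* covariate. No 2 libraries of a group agreed within sampling noise. The study's splicing data and other assays were not analysed here.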

Additional observations from a re-analysis of the deposited data

How the results depend on the processing

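The median over members stayed below 0 under every alternative run (-0.28 to -0.12), *Pfkl*, *Pdk1* and *Pdk2* were called under all of them, and pseudocounts, a filter of 1 or 50, equal totals and the *Xist* covariate left all call counts of members as they were. Members called higher numbered 2 with no filter on the mean (*Ldhb* joined, from 0 in WT), with no mean-variance trend or with the replicate block (*Eno2* joined), and 1 to 2 with 1 library left out (2 without deficient library 3, *Aldoc*). Members called lower numbered 3 under quantile normalization, without *Hk2* and *Slc16a1*, 11 with no minimum fold, and 3 to 7 with 1 library left out (3 without WT library 1). Past the adjusted p alone, higher members numbered 2 with no filter, no trend or DESeq2, 3 with the block, and 1 to 2 with 1 library left out; lower ones numbered 7 with no trend, 16 with the block and 6 to 12 with 1 library left out (6 without WT library 2 or 3, 7 without deficient library 1). The cause was not tested. Pathway-list genes called higher numbered 8 by edgeR and by DESeq2, against 5, and those called lower 1 to 2 with 1 library left out (2 without deficient library 2).

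Without division by length, the share differences (deficient minus WT) were -32.6 percentage points for *Pfkl*, 3.44 for *Pfkm*, 29.2 for *Pfkp*, 0.055 for *Eno1* and -0.15 for *Eno3*. The near-zero *Pdk3* turned to 0.052 with equal totals, 0.065 under quantile normalization, 0.018 by edgeR, 0.12 by edgeR on 5 libraries and between -0.11 and 0.17 with 1 library left out, and *Taldo1* to -0.056 by edgeR on 5 libraries and between -0.084 and 0.28. With 1 library left out, other values that crossed 0 ranged from -0.0016 to 0.21 for *Pfkfb4*, -0.066 to 0.10 for *Pdhb*, -0.11 to 0.15 for *Mpc1* and -0.43 to 0.034 for *Rpe*. None of these 6 passed the test in any of these fits.

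Same-numbered libraries deviated together with r = 0.43, 0.32 and 0.066, and differently numbered ones with r from -0.46 to 0.30. WT library 3 correlated best with deficient library 2 (0.30), both of them *Xist*-positive. These values do not decide whether the numbers pair the samples. The replicate block gave 5 members called lower and, past the adjusted p alone, 16 lower against 11 (*Pfkfb1*, *Pgk1*, *Eno1*, *Pkm* and *Tkt* joined), with 1755 genes higher and 1018 lower over all genes, against 1284 and 719. With 3 libraries a group, an exact test of 1 value cannot go below p = 0.1.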

Other observations

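Genes within 50 kb of *Pfkl* on chromosome 10 were picked after their values were seen. *Trpm2*, downstream of it on the same strand and encoding a calcium-permeable channel gated by ADP-ribose, rose from 12.3 ± 4.45 to 53.5 ± 1.45 normalized counts (log2 fold change 2.08 ± 0.34, limma adjusted p = 0.00735, higher in 3 of 3 deficient libraries than in any WT library). *Aire*, upstream on the same strand and encoding the autoimmune regulator, fell from 30.0 ± 7.86 to 7.57 ± 1.92 (-1.84 ± 0.39, limma adjusted p = 0.0206, lower in 3 of 3). *Cfap410*, on the opposite strand between *Trpm2* and *Pfkl*, had 75.3 ± 26.5 and 88.7 ± 24.6 with overlapping groups (0.26 ± 0.35, limma adjusted p = 0.672). All 3 are far less abundant than *Pfkl*.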
